A study of Ovis aries with 9 samples.

Results

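The comparison set the longissimus dorsi muscle of sheep fetuses at gestation day 135 (D135) against the same muscle at day 85 (D85), which spans the whole of the series. It rested on 6 of the 9 RNA-seq libraries, 3 for each of these days, taken by the pregnancy day in their labels. The other 3 libraries, from day 105 (D105), entered the estimate of the spread between libraries and gave the share of each change already reached at that day. All fetuses were Chinese merino sheep, and the labels name no treatment, genotype or sex, so the groups differ by pregnancy day alone as far as they are described. Whether each library of a day is a fetus of its own is not stated, and p-values therefore cover only the variation among these libraries, possibly technical in part. The table gives FPKM, the fragments of a transcript scaled by its length and by the fragments mapped in the library. Of its 22605 loci, 13086 had at least 1 FPKM in at least 3 of the 9 libraries and were tested. A log2 change is the D135 mean minus the D85 mean of log2(FPKM + 1), which understates the change of low genes, and a locus was called at an adjusted p under 0.05.

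Skeletal muscle fibres arise in the fetus from myoblasts that leave the cell cycle, fuse and build sarcomeres, first with embryonic and neonatal isoforms of myosin, troponin and actin. In sheep the fibres form before birth, and late gestation is known for the growth of these fibres and for the exchange of developmental isoforms for slow and adult fast ones. The longissimus dorsi is the long muscle of the back, a mixed muscle rich in fast fibres.

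Total FPKM per library lay between 395797 and 489270, and read depth was not given in the sources used here. Ratios of the lowest values put the depth of the D135 libraries at 1.11 to 1.21 times that of D85 replicate 1, against 0.993 to 1.07 for the other D85 libraries and the D105 libraries. All 9 skeletal muscle markers tested were present at every day, with a summed 7469, 8475 and 9974 FPKM at D85 and 17689, 21040 and 21221 at D135. Markers of tendon were uneven among libraries: their 9 tested members summed to 282, 283 and 167 FPKM at D85, 169, 671 and 151 at D105 and 93.7, 199 and 345 at D135. D105 replicate 2 was also the highest library for the summed cartilage markers, at 136 FPKM, and for the adipocyte markers, at 128 FPKM. The part of this library in the results was not tested, except where values without it are given.

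Between D85 and D135 most tested genes of several lists rose as deposited. Among them were slow fibre isoforms (11 of 14), adult fast isoforms (12 of 15), oxidative phosphorylation (42 of 52), the tricarboxylic acid cycle (21 of 29) and glycolysis (12 of 21). Most genes of mitosis (41 of 43), imprinted genes (13 of 16) and embryonic and neonatal isoforms (9 of 12) fell. The 75 tested loci of the slow, fast, embryonic and sarcomere scaffold lists together made up 3.86% to 4.98% of total FPKM in the D85 libraries and 7.79% to 9.55% in the D135 libraries. As deposited, 6097 of the 13086 loci (46.6%) changed, 903 of them higher at D135 (6.9%) and 5194 lower (39.7%). Over all tested loci the log2 change had a median of −0.35. After median-of-ratios scaling, which divides each library by a factor set by its typical locus (1.08 to 1.18 at D85, 0.788 to 0.850 at D135), the median change was 0.01. On that scale 3594 loci (27.5%) changed, 1952 higher (14.9%) and 1642 lower (12.5%). All 903 loci that were higher as deposited were higher on both scales, and all 1642 that were lower after scaling were lower on both, which makes 2545 loci (19.4%) called in the same direction either way. The scaling lost 3552 of the 5194 lower calls and gained 1049 higher calls, and no locus was called in opposite directions. Because the factors are larger at D85 than at D135, scaling moves nearly every log2 change upward. The overlap of the calls therefore follows largely from the scaling and gives the rises no independent support. The plot of log2 changes in both scalings shows this shift.

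**Figure D1:**
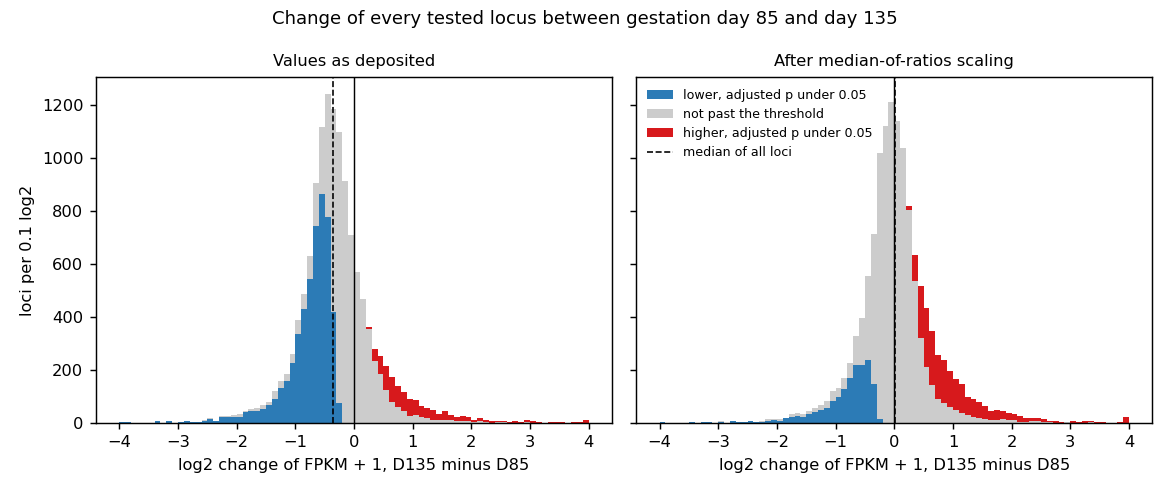
Histograms of the log2 change from D85 to D135 of the 13086 tested loci, as deposited and after median-of-ratios scaling. The x axis is the log2 change, the y axis the number of loci, and the dashed line marks the median, which moves from −0.35 to 0.01 with the scaling.

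The libraries of D135 lay wholly above those of D85 at 1233 loci (9.42%) and wholly below them at 6389 (48.8%). Large changes were fewer: 385 loci rose by at least 1 log2 unit (2.94%) and 1009 fell by that much as deposited (7.71%), 871 of which were lower on both scales. At 3 log2 units or more, 27 loci were higher and 17 lower on both scales. Among the 100 loci of highest mean FPKM, 22 were higher and 16 lower as deposited, against 38 and 5 after scaling. Leaving out each library in turn, on values as deposited, kept 638 of the 903 higher calls and 3589 of the 5194 lower calls. Of the 1642 calls that were lower on both scales it kept 1634. Those 1642 had already outlasted the loss of calls by scaling, so that count is not set against the one for rises. Counts below are given as deposited first and after median-of-ratios scaling second. They stand beside 6.9% higher and 39.7% lower of all loci as deposited, and 14.9% and 12.5% after scaling. A call marked as library-dependent was lost when at least 1 of the 9 libraries was left out, and the highest adjusted p reached in that way follows with the library that gave it.

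The steepest rises included muscle isoforms of housekeeping proteins, fast and slow sarcomere proteins and adult haemoglobin. The largest log2 change, 8.0, was that of RPS15, and a second RPL10 locus was also among the 12 largest (5.2). Both are uncertain loci described below. EEF1A2, the elongation factor of translation that mature muscle and neurons use, stood at 5.04, 8.69 and 3.08 FPKM at D85, 75.99, 168 and 93.9 at D105 and 660.2, 587 and 577 at D135 (log2 change 6.61 ± 0.36 (SE), adjusted p = 8.24e-05). The 3 days did not overlap, and the D135 mean was 108 times the D85 mean. RPL3L, the muscle-restricted paralog of the ribosomal protein RPL3, went from 3.54, 2.67 and 1.69 FPKM at D85 over 10.6, 11.9 and 9.20 to 59.9, 46.5 and 42.1 at D135 (log2 change 3.81 ± 0.21). Their widely expressed counterparts went the other way. RPL3 fell from 596, 596 and 589.5 to 233, 281 and 250.00 FPKM (log2 change −1.22, and −0.75 after scaling). EEF1A1 fell from 1067, 753 and 899 to 375, 503 and 463 FPKM as deposited (log2 change −1.01), a call that did not hold after scaling (adjusted p = 0.0666). On the FPKM scale EEF1A2 stood below EEF1A1 in every D85 and D105 library and above it in every D135 library.

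HBB, the adult beta chain of haemoglobin, rose in the same way, from 2.10, 0.867 and 0.476 FPKM at D85 over 15.3, 17.9 and 6.85 at D105 to 74.9, 142 and 70.4 at D135 (log2 change 5.49 ± 0.43 (SE), adjusted p = 0.00016). HBG1, the fetal beta-like chain, was at 139, 116 and 225 FPKM at D85 and 65.8, 78.3 and 43.8 at D135 (log2 change −1.32, adjusted p = 0.00667, and 0.0728 after scaling). Both loci were matched through the description that the deposited table gives for their identifiers, and globin genes resemble each other closely, so reads may be split among them. HBA1, the alpha chain, stood at 104, 69.8 and 75.7 FPKM at D85 and 57.1, 72.7 and 104 at D135, with overlapping days and no call. In whole muscle these transcripts come with blood, and fewer cells of a type cannot be told apart from less RNA per cell here or in any result below.

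AQP7, a channel for glycerol and water, was at 0.681, 0.294 and 0.246 FPKM at D85 and 19.4, 23.6 and 22.3 at D135, and TMEM52, a membrane protein, at 0.0694, 0.243 and 0.0668 FPKM at D85 and 19.4, 15.03 and 12.4 at D135. Neither gene overlapped between the days, and both were intermediate at D105. HSPB2, a small heat shock protein of muscle, shows how far single libraries can differ: it was at 0.000237, 0.000715 and 6.48 FPKM at D85, 0.000886, 43.6 and 0.000701 at D105 and 42.8, 34.1 and 32.7 at D135. It is listed near 0 in 2 libraries of D85 and 2 of D105, and its call was library-dependent, adjusted p = 0.122 without D85 replicate 2. RPS15, a ribosomal protein of the small subunit, was at 0.9996, 1.30 and 0.805 FPKM at D85, 199, 0.556 and 1.09 at D105 and 495, 594 and 486 at D135, so that D105 replicate 1 already carried it and the other D105 libraries did not. Ribosomal protein genes have near-identical copies, so this locus is uncertain, and 1 of 2 RPL10 loci behaved alike, listed at 0 in all D85 libraries and in 2 of D105 and at 34.05, 38.1 and 33.6 FPKM at D135. The other RPL10 locus held 509, 532 and 361 FPKM at D85 and 256, 258 and 393 at D135.

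The steepest falls held developmental myosin, matrix proteins of growing tissue and imprinted genes. PRR32, a proline-rich protein, was at 59.7, 50.9 and 63.4 FPKM at D85 and 3.15, 0.451 and 1.19 at D135 (log2 change −4.64 ± 0.42 (SE), adjusted p = 0.000229). MYH3, the embryonic myosin heavy chain, matched through its description in the table, was at 983, 1337 and 1289 FPKM at D85 and 22.4, 81.03 and 84.8 at D135 (log2 change −4.44 ± 0.50 (SE), adjusted p = 0.000472). POSTN, the matricellular protein periostin, was at 161, 102 and 128 FPKM at D85 and 5.53, 7.78 and 10.7 at D135 (log2 change −3.88 ± 0.28 (SE), adjusted p = 0.000141). At these 3 genes every D85 library was far above every D135 library. BCAT1, the cytosolic branched-chain aminotransferase, fell from 13.4, 13.1 and 20.3 to 0.336, 0.909 and 0.472 FPKM, and VCAN, the proteoglycan versican, from 62.4, 70.9 and 66.3 to 5.66, 5.01 and 6.83 FPKM. CDR1 fell from 11.6, 15.8 and 5.80 FPKM to 0.783, 0 and 0.148, with 1 D135 library listed at 0. Single loci of JOSD1 and ANK2 and one of ARHGAP8 were listed at 0 in all or most D135 libraries, while another locus of each gene kept a value in every library. The plot of leading loci gives all 24 by library.

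**Figure D2:**
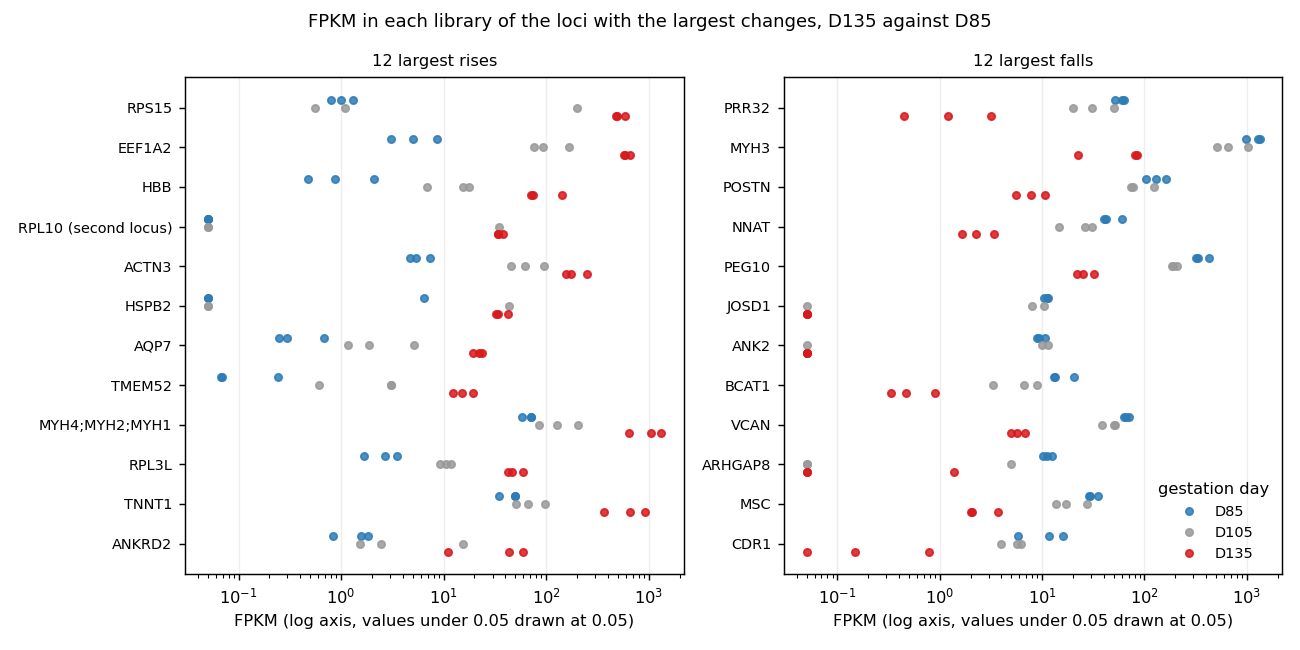
FPKM per library (log axis, values under 0.05 drawn at 0.05) of the 12 loci that rose most and the 12 that fell most among loci called on both scales; each point is a library, coloured by day. The D135 points lie wholly above the D85 points in the left panel, such as EEF1A2 and ACTN3, and wholly below them in the right panel, such as MYH3 and POSTN.

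Slow fibre isoforms rose together, and late. Of 14 tested members of the 15 listed, 11 were higher and none lower as deposited, and 13 were higher after scaling, against 6.9% and 14.9% of all loci. Their median log2 change stood 1.82 above that of all loci. MYH7, the slow myosin heavy chain, shares a joined locus with LOC101120580 and was at 117, 134 and 96.4 FPKM at D85, 131, 193 and 91.4 at D105 and 1126, 495 and 902 at D135 (log2 change 2.78 ± 0.35). MYL2, its regulatory light chain, was at 412, 588 and 300.5 FPKM at D85, 354, 507 and 252 at D105 and 3735, 1687 and 3040 at D135 (log2 change 2.68 ± 0.38). At both genes the D105 values spread around those of D85, and all 3 D135 libraries were above both days. The slow troponins moved alike: TNNT1 went from 49.7, 49.8 and 34.9 FPKM at D85 to 918, 369 and 651 at D135 (log2 change 3.74 ± 0.36) and TNNC1 from 180.3, 137 and 149 to 1166, 470.4 and 885 (log2 change 2.34 ± 0.30). TPM3, slow tropomyosin, rose by 2.91 log2 units and ATP2A2, the calcium pump of slow fibres, by 1.29. D135 replicate 2 was the lowest D135 library for each of the 6 genes just named.

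ANKRD2, a stretch-responsive ankyrin protein of slow fibres, and CSRP3, a protein of the Z-disc, broke that order. ANKRD2 was at 1.57, 0.826 and 1.84 FPKM at D85, 2.43, 15.4 and 1.52 at D105 and 10.9, 59.5 and 43.1 at D135, with D135 replicate 2 the highest (log2 change 3.74 ± 0.79). CSRP3 rose by 1.27 log2 units, from 90.1, 51.3 and 90.2 to 140.4, 239.8 and 176 FPKM, with D135 replicate 2 again the highest. The members that were not called were MYL3, at 5.75, 5.67 and 13.2 FPKM at D85 and 6.72, 8.09 and 5.50 at D135, the slow calsequestrin CASQ2 and MYOZ2, whose days overlapped; CASQ2 and MYOZ2 were called higher after scaling only.

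The fast isoforms of adult muscle also rose, and some had started by D105. Their summed FPKM at D105 (12715, 8748 and 10272) overlapped that at D85 (7577, 8662 and 9583). Of 15 tested loci, 12 were higher as deposited and 13 after scaling, with none lower, and the list's median log2 change lay 1.57 above that of all loci. ACTN3, the alpha-actinin of fast fibres, was at 4.71, 5.36 and 7.44 FPKM at D85, 45.4, 62.1 and 95.3 at D105 and 174, 249 and 157 at D135 (log2 change 4.82 ± 0.29 (SE), adjusted p = 9.17e-05), and no 2 days overlapped. The adult fast myosin heavy chains MYH1 and MYH2 share a joined locus with LOC101111980, which the table describes as myosin-4, and could not be separated. That locus stood at 70.9, 57.7 and 71.9 FPKM at D85, 84.8, 205 and 128 at D105 and 636, 1319 and 1045 at D135 (log2 change 3.83 ± 0.35 (SE), adjusted p = 0.000249). MYBPC2, the fast myosin-binding protein C, was at 4.05, 8.83 and 7.78 FPKM at D85, 42.2, 29.7 and 76.8 at D105 and 39.7, 189 and 114 at D135 (log2 change 3.66 ± 0.58), and its D105 and D135 values overlapped. CASQ1, the calcium store protein of fast fibres, rose by 2.42 log2 units and ATP2A1, their calcium pump, by 2.08.

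Of the 2 most abundant fast genes, 1 was called as deposited. MYLPF, the fast regulatory light chain, was at 2495, 3269 and 3840 FPKM at D85 and 4417, 5810 and 4935 at D135, apart between the days yet not called as deposited (log2 change 0.67, adjusted p = 0.0931), and called after scaling (adjusted p = 0.0293). TNNC2, fast troponin C, was at 1621, 1973 and 1987 FPKM at D85 and 2434, 3108 and 2681 at D135 (log2 change 0.56, adjusted p = 0.0445). This call was library-dependent, adjusted p = 0.126 without D85 replicate 1, and quantile normalization turned its direction to −0.41. TPM2 rose by 1.35 and fast troponin I, TNNI2, by 1.22 log2 units. PVALB, a calcium buffer of fast fibres in other mammals, was at 0.501, 0.691 and 0.575 FPKM at D85, 2.18, 4.56 and 1.30 at D105 and 0.102, 0.240 and 0.333 at D135, under 1 FPKM in every D85 and D135 library, and was not called.

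Developmental isoforms fell, though not all to the same depth. Of 12 tested members, 9 were lower as deposited and 8 after scaling, against 39.7% and 12.5% of all loci, and the median log2 change lay 1.28 below that of all loci. MYH8, the neonatal myosin heavy chain, was at 1334, 1618 and 1364 FPKM at D85, 1757, 1260 and 1911 at D105 and 726, 508 and 361 at D135 (log2 change −1.49 ± 0.27). Its D105 libraries spread around those of D85, so that its fall came after D105, whereas embryonic MYH3 stood at 1031, 510.2 and 653 FPKM at D105. MYL4, the embryonic light chain, fell from 1610, 878 and 1539 to 192, 238 and 501 FPKM and cardiac troponin T, TNNT2, from 6.03, 6.86 and 6.34 to 1.75, 0.352 and 0.363. NES, the intermediate filament nestin of immature fibres, fell from 262, 196 and 196 to 22.00, 18.2 and 42.96 FPKM (log2 change −3.01 ± 0.52). ACTC1, the cardiac actin used by fetal muscle, was at 1331, 1106 and 1818 FPKM at D85 and 264, 686 and 552 at D135, lower as deposited (log2 change −1.58) but not after scaling (adjusted p = 0.0919). A single member rose, the locus that joins MYL6 and MYL6B, whose 119, 105 and 106 FPKM at D85 and 641, 275 and 425 at D135 cannot be assigned to either light chain.

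Set against each other within a library, the myosin heavy chains changed order. At D85 MYH8 was the highest of the 4 loci named above in each library, followed by MYH3, MYH7 and the joined MYH2 and MYH1 locus. At D135 MYH3 was the lowest of the 4 in each library, and MYH7 or the adult fast locus the highest. In D135 replicate 1 that was MYH7, at 1126 FPKM, and in replicates 2 and 3 the fast locus, at 1319 and 1045 FPKM. These genes are close paralogs, so reads may be split among them. The plot of summed lists gives the levels of whole groups.

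**Figure D3:**
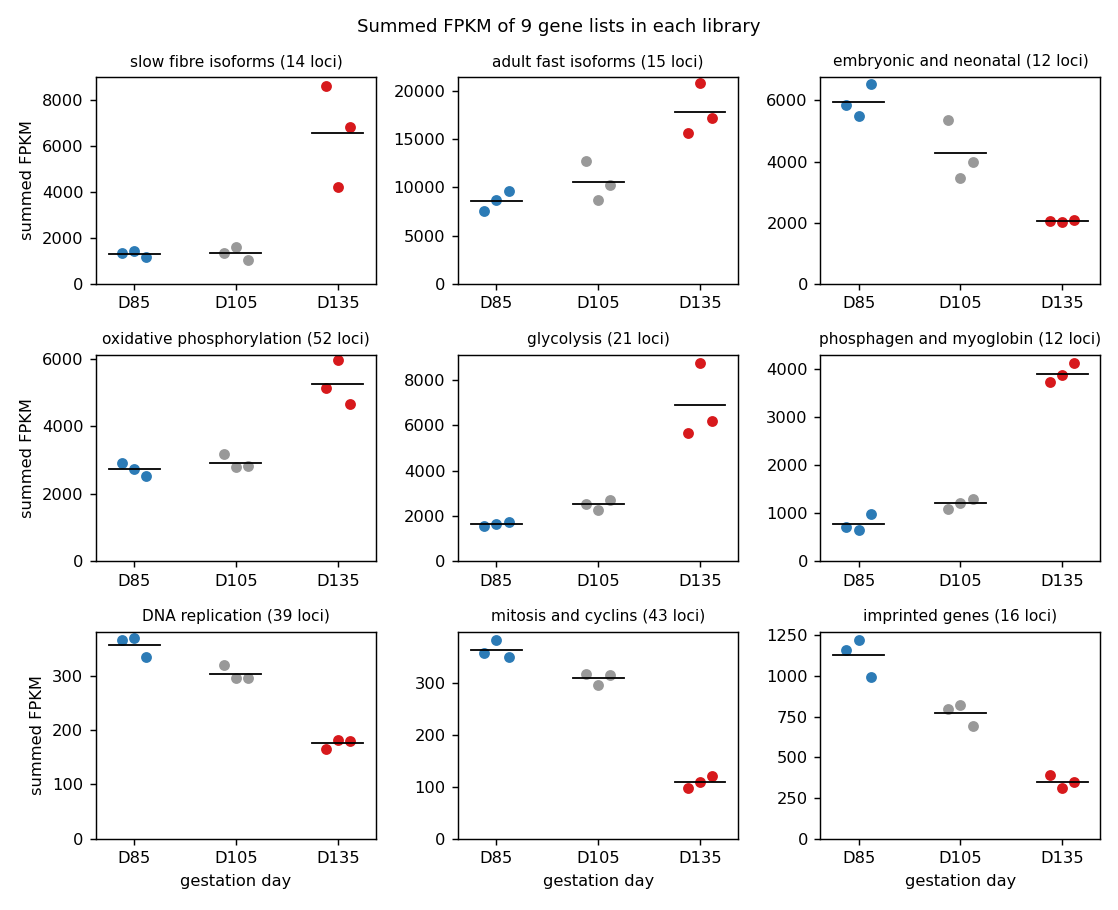
Summed FPKM of the tested members of 9 gene lists per library at D85, D105 and D135; points are libraries and horizontal lines the day means. The D135 points of the slow, glycolysis and phosphagen lists lie above all points of the earlier days, and those of the embryonic, DNA replication, mitosis and imprinted lists lie below them.

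Of the sarcomere scaffold, 16 of 34 tested loci were higher and 2 lower as deposited, against 22 and none after scaling. ACTA1, skeletal actin, was at 986, 943 and 1380 FPKM at D85, 1316, 1775 and 933 at D105 and 4160, 5253 and 6464 at D135 (log2 change 2.26 ± 0.28 (SE), adjusted p = 0.000714), and every D135 library was above every earlier one. The titin-cap protein TCAP shares a joined locus with PNMT, which was at 12.6, 36.6 and 24.4 FPKM at D85 and 227, 168 and 166 at D135 (log2 change 2.98 ± 0.33). TMOD4, which caps actin filaments and shares a joined locus with VPS72, rose by 2.60, and ACTN2, alpha-actinin of all sarcomeres, by 1.58 log2 units. The giant proteins rose by smaller amounts: TTN, titin, went from 707, 774 and 956 to 1354, 1459 and 1430 FPKM (log2 change 0.81 ± 0.14), and the joined NEB locus rose by 1.01. MYOT, myotilin, rose too, and XIRP2 rose by 1.84 log2 units. The lower members, both lost after scaling, were CAPZB, a barbed-end capping protein (log2 change −0.61), and UNC45B, the chaperone of myosin folding (log2 change −0.82, library-dependent, adjusted p = 0.0526 without D135 replicate 3). KLHL41, which stabilises sarcomere proteins, was at 423, 305 and 298 FPKM at D85, 76.2, 65.9 and 82.9 at D105 and 162, 467 and 577 at D135, lowest at D105 and not called between the ends.

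Of the genes that couple excitation to contraction, the adult calcium release channel rose and the developmental one fell. In this list 8 of 23 tested were higher and 3 lower as deposited, and 13 and 1 after scaling. Without D85 replicate 1 or 3 or D135 replicate 1, 5 were higher as deposited. RYR1, the calcium release channel of adult muscle, was at 54.8, 78.9 and 55.5 FPKM at D85 and 106, 112 and 84.6 at D135 (log2 change 0.68 ± 0.18, library-dependent, adjusted p = 0.0601 without D135 replicate 2). RYR3, the isoform typical of developing muscle, was at 19.4, 29.9 and 14.8 FPKM at D85, 10.4, 4.87 and 13.7 at D105 and 2.36, 2.14 and 1.43 at D135 (log2 change −2.87 ± 0.36). Subunits of the voltage sensor rose with RYR1: CACNA1S by 0.78 and CACNG1 by 1.36 log2 units. SLN, sarcolipin, an inhibitor of the calcium pump, was at 322, 298 and 254 FPKM at D85 and 60.2, 89.3 and 64.5 at D135, lower as deposited (library-dependent, adjusted p = 0.0884 without D135 replicate 1) and not after scaling (adjusted p = 0.119). DYSF, dysferlin, was the remaining lower member, also as deposited only.

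Ion channels of the fibre membrane moved in both directions. The chloride channel CLCN1 and the potassium channel KCNJ2, which both hold the membrane at rest, rose by 1.42 and 1.35 log2 units. SCN4A, the sodium channel of adult muscle, in a joined locus, was at 6.33, 6.73 and 5.81 FPKM at D85 and 6.02, 6.34 and 6.15 at D135 and not called. In all, 7 of 14 were higher and 4 lower, and 8 and 4 after scaling. The potassium channel KCNN3 was among the lower members.

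At the neuromuscular synapse 9 of 14 tested were lower as deposited and 6 after scaling, and 1 was higher on both scales. CHRNE, the acetylcholine receptor subunit of the adult synapse, was that gene, at 2.69, 1.62 and 1.13 FPKM at D85 and 6.33, 5.68 and 5.09 at D135 (log2 change 1.29 ± 0.27). CHRNG, its fetal counterpart, was at 17.8, 10.4 and 13.03 FPKM at D85 and 4.99, 2.67 and 4.52 at D135 (log2 change −1.54 ± 0.27). At D85 CHRNG was the higher of the pair in every library, and at D135 CHRNE was. The receptor clustering genes RAPSN and LRP4 fell (log2 changes −1.49 and −1.27), and ERBB3, a neuregulin receptor also listed as a Schwann cell marker, fell by 2.91. In the dystrophin complex 3 of 19 were higher and 6 lower as deposited, and 8 and 2 after scaling. The share lower lay under that of all loci on both scales (39.7% and 12.5%). The syntrophin SNTB1 fell by 1.23, while DMD, dystrophin itself, was at 17.7, 20.3 and 20.3 FPKM at D85 and 18.1, 17.4 and 21.1 at D135 and was called only after scaling. DTNA and SGCB (library-dependent, adjusted p = 0.0848 without D85 replicate 1) were among the higher members as deposited. Without D85 replicate 1 or D135 replicate 1, 3 members were lower, and after scaling those lower were SGCE and SNTB1.

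Regulators of muscle formation fell about as often as all loci as deposited (39.7%), and their median change lay 0.12 above that of all loci. After scaling the share lower lay above the 12.5% of all loci, on 5 genes. Of 24 tested myogenic regulators none was higher and 11 were lower as deposited, and after scaling 5 were lower and 1, SIX4, was higher. Without D135 replicate 2, 7 were lower as deposited. PAX7, the marker of muscle stem cells, was at 2.46, 3.73 and 2.28 FPKM at D85 and 0.588, 0.494 and 0.471 at D135 (log2 change −1.31 ± 0.17). MSC, musculin, a repressor in myoblasts, was at 35.2, 29.3 and 28.9 FPKM at D85, 27.2, 13.7 and 17.1 at D105 and 3.74, 2.04 and 2.01 at D135 (log2 change −3.19 ± 0.26). The other calls that held after scaling were PITX3, VGLL3 and TCF12. MYOD1 was at 5.81, 8.71 and 6.84 FPKM at D85 and 3.16, 3.94 and 3.78 at D135, apart between the days and called as deposited only (adjusted p after scaling = 0.176). MYF5 was at 3.55, 3.99 and 18.9 FPKM at D85 and 1.01, 0.603 and 0.422 at D135, high in D85 replicate 3, and its call was lost after scaling (adjusted p = 0.0889) and library-dependent, adjusted p = 0.101 without D85 replicate 3. MYOG, which drives differentiation, was at 8.37, 10.8 and 9.47 FPKM at D85 and 8.94, 9.47 and 7.09 at D135, with overlapping days and no call.

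Genes of satellite cells and of fusion fell with PAX7: 11 of 15 were lower as deposited and 6 after scaling, with MET, a growth factor receptor, higher after scaling only. TMEM8C, the fusion protein also called myomaker, was at 7.37, 8.13 and 6.97 FPKM at D85, 5.74, 2.47 and 4.79 at D105 and 0.721, 0.817 and 1.05 at D135 (log2 change −2.19 ± 0.23). CDH15, the cadherin of myoblasts, fell from 15.1, 19.2 and 16.7 to 2.87, 3.17 and 2.59 FPKM, and CALCR, a receptor of quiescent satellite cells, from 8.43, 5.66 and 7.26 to 1.26, 1.37 and 1.40. The D135 libraries of these 3 genes lay within a narrow range, well under every D85 library.

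Most imprinted genes of fetal growth fell. Of 16 tested imprinted genes 13 were lower as deposited and 11 after scaling, with GRB10 alone higher and only after scaling; the median log2 change lay 1.01 below that of all loci. PEG10, a retrotransposon-derived gene, was at 330.5, 423 and 316 FPKM at D85, 206, 185 and 188 at D105 and 31.8, 21.8 and 24.9 at D135 (log2 change −3.72 ± 0.16 (SE), adjusted p = 4.56e-05). NNAT, neuronatin, fell from 40.2, 60.1 and 41.6 to 1.65, 3.41 and 2.27 FPKM and MEST from 26.2, 34.7 and 28.3 to 2.48, 3.12 and 1.997. DLK1, a Notch ligand-like protein that marks growing muscle, was at 93.2, 107 and 47.5 FPKM at D85 and 12.7, 12.7 and 12.8 at D135, and its neighbour RTL1 fell by 2.51 log2 units. At D135 the 3 libraries of DLK1 were nearly equal, whereas those of D85 ranged widely. GNAS, the most abundant member, was lower as deposited and not after scaling (adjusted p = 0.438), and NAP1L5 and NDN were not called.

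Within the insulin-like growth factor system the fetal ligand, its receptors and the carrier IGFBP2 fell. The carriers IGFBP3 and IGFBP7 rose, and IGFBP4, IGFBP5 and IGFBP6 were not called on either scale. IGF2, the main fetal growth factor, was at 73.8, 114 and 35.2 FPKM at D85, 52.6, 69.7 and 26.97 at D105 and 13.5, 13.3 and 13.3 at D135 (log2 change −2.23 ± 0.45, adjusted p = 0.00511). IGF1, the ligand that predominates after birth, was at 9.68, 8.10 and 9.80 FPKM at D85 and 7.77, 5.22 and 8.43 at D135, with overlapping days. IGF1R fell by 0.83 log2 units and the joined locus of IGF2R, which clears IGF2, fell too (log2 change −1.36). The binding protein IGFBP2 fell from 19.5, 25.3 and 16.96 to 2.76, 3.81 and 5.08 FPKM. IGFBP3 was at 7.94, 10.5 and 13.3 FPKM at D85, 23.3, 28.5 and 29.8 at D105 and 16.1, 20.6 and 22.99 at D135. As deposited it was higher at D105 than at either end, an excess over D135 that did not hold after scaling. IGFBP7 was at 51.05, 49.05 and 42.8 FPKM at D85, 71.5, 88.3 and 76.7 at D105 and 71.6, 75.1 and 107 at D135. In all 2 of 14 were higher and 5 lower, and 4 and 4 after scaling. The remaining lower member was IGFALS, as deposited only (log2 change −0.525). Leaving out single libraries left 4 to 5 members lower.

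All 7 tested genes of the fetal RNA-binding and growth list were lower as deposited, and 5 after scaling. PLAGL1, an imprinted zinc finger factor, was at 26.1, 24.8 and 23.8 FPKM at D85, 16.1, 18.9 and 15.8 at D105 and 5.92, 6.63 and 5.65 at D135 (log2 change −1.88 ± 0.10 (SE), adjusted p = 8.24e-05). IGF2BP2 and IGF2BP3, which bind growth-related mRNAs, fell (log2 changes −1.52 and −1.61). In the myostatin, activin and BMP list 5 of 19 were lower and none higher as deposited, against 1 and 4 after scaling. The share lower lay under that of all loci on both scales (39.7% and 12.5%). MSTN, myostatin, the brake on muscle growth, was at 9.30, 16.7 and 16.8 FPKM at D85 and 6.81, 5.26 and 3.64 at D135, lower as deposited (log2 change −1.28) and not after scaling (adjusted p = 0.0781). TGFB2, the one call that held, fell from 13.3, 12.6 and 12.6 to 5.37, 4.80 and 6.75 FPKM.

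A minority of the genes listed as responding to glucocorticoid or thyroid hormone rose. Both hormones rise in the fetus before birth, and their part in these changes was not tested. ZBTB16, a factor induced by glucocorticoids, was at 0.151, 0.144 and 0.209 FPKM at D85 and 3.75, 3.46 and 2.99 at D135 at the larger of its 2 called changes (log2 change 1.91 ± 0.12). TSC22D3, another glucocorticoid target, was at 7.72, 6.39 and 5.77 FPKM at D85 and 11.6, 13.7 and 17.1 at D135, and NR3C1, the receptor itself, at 11.8, 10.8 and 11.4 FPKM at D85 and 14.8, 15.8 and 15.2 at D135. The days did not overlap at any of these 3 genes. Of 21 tested glucocorticoid-responsive genes 7 were higher, 2 lower and 12 not called, and 10, 0 and 11 after scaling. FKBP5, SGK1 and KLF15 were among those not called on either scale. The 2 lower ones were NR3C2, the mineralocorticoid receptor, and HSD11B2, which inactivates cortisol. The thyroid axis had 9 tested genes, of which 3 were higher on both scales and 4 lower as deposited only. The 3 were HR, KLF9 (library-dependent, adjusted p = 0.132 without D135 replicate 3) and THRB, the beta receptor of thyroid hormone, which was at 1.25, 1.16 and 0.391 FPKM at D85 and 2.92, 2.10 and 2.35 at D135 (library-dependent, adjusted p = 0.109 without D85 replicate 3). A second KLF9 locus, at 0.141, 0.326 and 0.296 FPKM at D85 and 2.19, 2.65 and 2.49 at D135, was higher too. HR, a corepressor gene that thyroid hormone induces, rose by 1.03 log2 units. RXRG, a partner receptor, was lower as deposited (log2 change −0.96, library-dependent, adjusted p = 0.141 without D135 replicate 3) and not after scaling, and NCOR1 and MED1 were lower in the same way. Without D85 replicate 2 or D135 replicate 2 none was lower, 1 was without D85 replicate 1 or 3, and 2 were without D105 replicate 1 or D135 replicate 3.

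The insulin-responsive glucose transporter rose. SLC2A4, the insulin-responsive glucose transporter, was at 1.91, 2.67 and 3.43 FPKM at D85, 5.25, 6.66 and 5.18 at D105 and 8.51, 11.3 and 11.7 at D135 (log2 change 1.66 ± 0.19). SLC2A1, the widespread transporter, was at 2.83, 6.65 and 5.002 FPKM at D85 and 3.29, 1.34 and 1.28 at D135, lower as deposited (log2 change −0.98, library-dependent, adjusted p = 0.102 without D85 replicate 2) and not after scaling (adjusted p = 0.162). TXNIP, which limits glucose uptake, rose from 23.1, 20.8 and 17.6 to 66.4, 59.6 and 60.7 FPKM, and TBC1D1, a brake on transporter traffic, fell from 11.6, 11.5 and 11.3 to 4.97, 4.02 and 5.50. Of 17 tested genes of this list 4 were higher and 4 lower, and 7 and 1 after scaling. SLC2A12 and RRAD, an inhibitor of calcium channels, were the other rises, and TBC1D4 and the joined AKT2 locus the other falls, as deposited only.

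Glycolysis genes rose in most cases, muscle isoforms among them. Of 21 tested loci 12 were higher and 1 lower, and 16 and 1 after scaling, with a median log2 change 1.2 above that of all loci. GAPDH was at 655, 703 and 645 FPKM at D85, 962, 922 and 1090 at D105 and 2839, 4494 and 2755 at D135 (log2 change 2.29 ± 0.20 (SE), adjusted p = 0.000206). PGAM2, the muscle phosphoglycerate mutase, was at 155, 148 and 132 FPKM at D85, 346, 245 and 368 at D105 and 627, 1124 and 905 at D135 (log2 change 2.57 ± 0.24), while its widespread paralog PGAM1 was called after scaling only. FBP2, the muscle fructose bisphosphatase, rose from 3.18, 1.78 and 2.51 to 28.5, 37.5 and 19.2 FPKM, and ALDOA, in a joined locus with LOC105604728, from 117, 239.5 and 254 to 633, 1237 and 821. ALDOC, the aldolase of brain, was the lower member (log2 change −0.59). D135 replicate 2 was the highest library for GAPDH, PGAM2, FBP2 and ALDOA, as it was for the adult fast myosin locus. Its part in these results was not tested; each of the 4 calls held without it.

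In glycogen metabolism 9 of 20 were higher and 4 lower, and 13 and 2 after scaling. PPP1R3C, which targets a phosphatase to glycogen, was at 8.31, 7.45 and 9.46 FPKM at D85, 14.2, 2.05 and 21.7 at D105 and 102, 122 and 91.5 at D135 (log2 change 3.49 ± 0.64). PYGM, muscle glycogen phosphorylase, was at 91.95, 115 and 93.9 FPKM at D85, 161, 108 and 195 at D105 and 284, 343 and 328 at D135 (log2 change 1.66 ± 0.21). The phosphorylase kinase subunits PHKA2 and PHKG2, of the liver type, fell (log2 changes −1.72 and −1.34). PGM2 (library-dependent, adjusted p = 0.0728 without D135 replicate 2) and UGP2 were the other lower members, as deposited only.

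The list with the most rises was mitochondrial. In oxidative phosphorylation 42 of 52 tested loci were higher and 1 lower, and 44 and none after scaling, against 6.9% and 14.9% of all loci higher. The summed level of the 52 loci was 2912, 2730 and 2537 FPKM at D85, 3166, 2778 and 2815 at D105 and 5126, 5945 and 4663 at D135. COX7A1, the muscle isoform of a cytochrome oxidase subunit, was at 24.4, 23.3 and 26.4 FPKM at D85, 44.02, 50.1 and 48.1 at D105 and 216, 272 and 174 at D135 (log2 change 3.08 ± 0.16 (SE), adjusted p = 7.61e-05). COX4I1 of the same complex rose by 1.39 log2 units, and UQCRC2 of complex III by 1.47. ATP5B and ATP5A1, the catalytic core of ATP synthase and the most abundant members, went from 200.3, 186 and 184 to 376, 453 and 337 FPKM and from 189, 162 and 161 to 262, 341 and 266. The lower member was COX6A1, the widespread isoform, at 61.03, 51.3 and 45.97 FPKM at D85 and 27.5, 39.8 and 32.8 at D135, as deposited only. Its muscle counterpart COX6A2, singled out after its values were seen, was at 129.9, 129 and 121 FPKM at D85 and 342, 322 and 306 at D135 (log2 change 1.34 ± 0.13).

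In the tricarboxylic acid cycle 21 of 29 tested were higher and none lower, and 25 and none after scaling. IDH2, the mitochondrial isocitrate dehydrogenase, was at 3.77, 4.45 and 2.98 FPKM at D85 and 16.8, 16.5 and 14.3 at D135 (log2 change 1.84 ± 0.14), and SDHA of succinate dehydrogenase at 66.1, 69.3 and 56.4 FPKM at D85 and 135, 157 and 108 at D135. Of the mitochondrial ribosomal proteins 4 of 38 were higher and 3 lower as deposited, and 16 and none after scaling. MRPS15 and MRPL37 led the 4, at 0.95 and 0.78 log2 units, followed by MRPS5 (library-dependent, adjusted p = 0.0925 without D135 replicate 2) and MRPS9 (library-dependent, adjusted p = 0.0912 without D135 replicate 1). Without D85 replicate 2 or 3, 2 were higher. The 3 lower ones, all near the common shift and with positive values after scaling, were MRPS10 (library-dependent, adjusted p = 0.0509 without D85 replicate 1), MRPS27 (library-dependent, adjusted p = 0.0673 without D135 replicate 2) and MRPS31 (library-dependent, adjusted p = 0.0816 without D135 replicate 3).

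Genes of fat oxidation rose in most cases, with 18 of 33 higher and 1 lower, and 24 and 1 after scaling. CD36, a fatty acid transporter, was at 6.41, 6.12 and 7.38 FPKM at D85, 11.4, 11.2 and 12.4 at D105 and 25.3, 19.5 and 17.8 at D135 (log2 change 1.51 ± 0.14). ACADVL and ETFDH, enzymes of beta oxidation and of electron transfer from it, rose by 1.25 and 1.18 log2 units. FABP3, the fatty acid binding protein of muscle, was at 32.2, 20.4 and 29.1 FPKM at D85 and 52.6, 53.00 and 51.9 at D135 (log2 change 0.95 ± 0.18). SLC27A4, a fatty acid transport protein, was the lower member (log2 change −1.07). LPL, lipoprotein lipase, is also an adipocyte marker; it was at 5.94, 1.70 and 1.81 FPKM at D85, 2.95, 41.1 and 4.79 at D105 and 29.03, 19.7 and 11.8 at D135, with D105 replicate 2 the highest of all libraries, and its call (adjusted p = 0.0479) was library-dependent, adjusted p = 0.126 without D135 replicate 1.

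Of the phosphagen system and oxygen store, 7 of 12 were higher and 1 lower, and 9 and 1 after scaling. CKM, muscle creatine kinase, was at 552, 504 and 843 FPKM at D85, 946, 1062 and 1092 at D105 and 3243, 3524 and 3735 at D135 (log2 change 2.50 ± 0.20 (SE), adjusted p = 0.000163). CKMT2, its mitochondrial partner, rose from 1.02, 1.16 and 1.20 to 10.5, 13.7 and 11.3 FPKM, and CKB, the brain type, fell from 6.02, 5.20 and 5.88 to 1.61, 0.608 and 0.885. MB, myoglobin, was at 31.9, 14.6 and 7.08 FPKM at D85, 7.99, 38.2 and 22.2 at D105 and 278, 84.2 and 187 at D135 (log2 change 3.35 ± 0.70). The D105 values of MB spread around those of D85, and D135 replicate 2 was the lowest D135 library, as for the slow isoforms. Regulators of oxidative fibres were split, with 5 of 21 higher and 5 lower as deposited, and 8 and none after scaling. PERM1, a muscle partner of mitochondrial gene regulation, was at 1.21, 1.505 and 1.12 FPKM at D85 and 6.88, 6.80 and 5.16 at D135 (log2 change 1.67 ± 0.13), and VEGFA, the vessel growth factor, at 4.29, 7.23 and 4.94 FPKM at D85 and 23.04, 15.1 and 13.3 at D135. The other 3 higher were ESRRA, PPARA and EPAS1 (library-dependent, adjusted p = 0.112 without D135 replicate 2). The 5 lower as deposited were PPARD (library-dependent, adjusted p = 0.0888 without D135 replicate 3), NRF1 (library-dependent, adjusted p = 0.0529 without D85 replicate 2), TFAM (library-dependent, adjusted p = 0.118 without D135 replicate 1), GABPA (library-dependent, adjusted p = 0.0829 without D85 replicate 3) and PRKAG3 (library-dependent, adjusted p = 0.0934 without D85 replicate 2).

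Amino acid metabolism and antioxidant enzymes were mixed. In the branched-chain amino acid list 6 of 24 were higher and 2 lower, BCAT1 on both scales and BCAT2 as deposited, and 11 and 1 after scaling. GPT2, mitochondrial alanine aminotransferase, was at 6.08, 7.07 and 5.05 FPKM at D85, 16.7, 14.7 and 28.02 at D105 and 30.9, 28.7 and 30.7 at D135 (log2 change 2.15 ± 0.22). Of 27 antioxidant genes 5 were higher and 6 lower as deposited, and 9 and none after scaling. The share lower as deposited lay under the 39.7% of all loci, and the share higher above their 6.9%. SOD2, the mitochondrial superoxide dismutase, rose from 12.7, 13.4 and 15.6 to 35.9, 23.9 and 27.8 FPKM, and CAT, PRDX3, TXN2 (library-dependent, adjusted p = 0.116 without D135 replicate 2) and NQO1 (library-dependent, adjusted p = 0.12 without D135 replicate 2) were the other 4. Without D135 replicate 2, 2 were lower, and 3 without any other D85 or D135 library.

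Counts for the general machinery of gene expression depended on the scaling. As deposited, ribosomal proteins and initiation factors were lower less often than all loci (39.7%), and splicing genes more often. Of 75 cytosolic ribosomal proteins 1, the uncertain RPS15, was higher and 12 lower as deposited, whereas 20 were higher and none lower after scaling. Quantile normalization gave 25 lower. Without D135 replicate 1 or 3, 4 were lower as deposited, against 5 without D85 replicate 1 and 7 without D85 replicate 2 or 3 or D105 replicate 3. RPS29, among the most abundant loci, was at 2252, 1987 and 1991 FPKM at D85 and 1858, 1926 and 1411 at D135 and was not called as deposited. Of 37 initiation factors none was higher and 12 were lower, against 9 and 1 after scaling. Without D85 replicate 2 or D135 replicate 2, 5 were lower as deposited, against 6 without D135 replicate 1 and 7 without D85 replicate 1 or 3. The gene lower on both scales, EIF4A1, an RNA helicase, fell from 108, 96.6 and 97.5 to 38.4, 40.2 and 48.6 FPKM. Of the splicing machinery 36 of 46 were lower as deposited and 6 after scaling, with none higher, and quantile normalization gave 17 lower. HNRNPA1, an abundant splicing factor, went from 132, 139.9 and 122 to 53.6, 61.3 and 62.2 FPKM (log2 change −1.14 ± 0.10).

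Splicing regulators that act in muscle moved in both directions. MBNL1, which promotes adult splice forms, was at 6.57, 5.82 and 6.80 FPKM at D85 and 10.2, 10.5 and 10.5 at D135 (log2 change 0.63 ± 0.11). CELF2 and PTBP1, which favour fetal or non-muscle forms, fell, PTBP1 with a log2 change of −0.87 and CELF2 from 17.7, 18.3 and 17.7 to 7.97, 8.71 and 8.74 FPKM at its most abundant locus. Of 12 tested, 2 were higher, MBNL1 and RBM38, and 5 lower as deposited, and 5 and 2 after scaling. The 5 were CELF1, CELF2, PTBP1, PTBP2 (library-dependent, adjusted p = 0.0666 without D135 replicate 3) and the joined RBFOX2 locus. In protein turnover 3 of 33 proteasome subunits were higher and 8 lower as deposited, against 10 and none after scaling; the 3 were PSMB1 (library-dependent, adjusted p = 0.141 without D85 replicate 2), PSMB10 (library-dependent, adjusted p = 0.118 without D85 replicate 3) and PSMC2 (library-dependent, adjusted p = 0.122 without D85 replicate 2). The share of proteasome subunits lower as deposited lay under the 39.7% of all loci. When D85 replicate 1 or D135 replicate 2 was left out, 5 were lower. Of 20 ubiquitin and autophagy genes ASB11, SQSTM1, ASB2 (library-dependent, adjusted p = 0.103 without D85 replicate 2) and FOXO3 (library-dependent, adjusted p = 0.101 without D135 replicate 2) were higher and BECN1 (library-dependent, adjusted p = 0.122 without D85 replicate 1) lower, and 10 and none after scaling. Leaving out D85 replicate 1 or D135 replicate 1 left 2 higher. Of 18 chaperones 3 were higher, HSPB2, HSPB1 (library-dependent, adjusted p = 0.0761 without D135 replicate 3) and HSPB8 (library-dependent, adjusted p = 0.0685 without D135 replicate 3), and HSP90AB1, HSPA5 and UNC45B were lower, and 7 and 1 after scaling. Without D105 replicate 2, 6 were higher, 5 without D105 replicate 3, and 1 without D85 replicate 1 or 2 or D135 replicate 2 or 3. HSP90AB1, the cytosolic chaperone, went from 246, 227 and 246 to 99.2, 109.7 and 121 FPKM.

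Most genes of the cell cycle fell, and late. Of 43 tested genes of mitosis and cyclins 41 were lower as deposited and 35 after scaling, with none higher, against 39.7% and 12.5% of all loci. Their summed level was 358, 384 and 350.00 FPKM at D85, 317, 297 and 316 at D105 and 97.7, 110.00 and 121 at D135. TOP2A, the topoisomerase of dividing cells, was at 26.1, 30.1 and 24.5 FPKM at D85, 24.5, 22.5 and 25.4 at D105 and 4.38, 5.06 and 7.18 at D135 (log2 change −2.11 ± 0.16 (SE), adjusted p = 0.000156). UBE2C, which drives exit from mitosis, was at 29.3, 32.6 and 22.7 FPKM at D85, 27.7, 20.2 and 28.9 at D105 and 3.94, 3.88 and 7.32 at D135 (log2 change −2.31 ± 0.25). At both genes the D105 values lay among or just under those of D85, and the D135 values were far below. CCND2, a cyclin of the G1 phase and the most abundant member, was at 41.9, 40.3 and 36.7 FPKM at D85, 29.3, 29.1 and 24.6 at D105 and 12.3, 11.7 and 11.2 at D135, with no overlap between any 2 days. Of 39 genes of DNA replication 32 were lower as deposited and 22 after scaling, and RPA2 and RPA3 were higher after scaling only. RRM2 and TYMS, which supply nucleotides, fell (log2 changes −1.87 and −1.78), and MCM4 of the replicative helicase fell too (log2 change −1.62).

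Inhibitors of the cycle were lower about as often as all loci as deposited (39.7%), and more often after scaling (12.5% of all loci), on 3 genes. CDKN1A, the inhibitor p21, was at 18.9, 7.83 and 9.23 FPKM at D85 and 2.44, 1.71 and 1.62 at D135 (log2 change −2.07 ± 0.46), and CDKN1C, an imprinted inhibitor, at 31.3, 24.03 and 33.8 FPKM at D85 and 12.5, 12.03 and 13.5 at D135 (log2 change −1.16 ± 0.18). Of 11 tested, 5 were lower and none higher as deposited, and 3 and 1 after scaling. RBL1 was the other call that held, RB1 and CDKN2C (library-dependent, adjusted p = 0.114 without D135 replicate 3) were lower as deposited only, and BTG1 was higher after scaling only. Of 24 histone and chromatin genes 16 were lower as deposited and 11 after scaling, and TET2 was higher after scaling. H2AX, a histone variant, went from 41.02, 46.6 and 36.4 to 6.71, 8.07 and 11.5 FPKM, and HMGB2 and HMGB3, chromatin proteins abundant in dividing cells, fell (log2 changes −1.62 and −2.06).

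**Figure D4:**
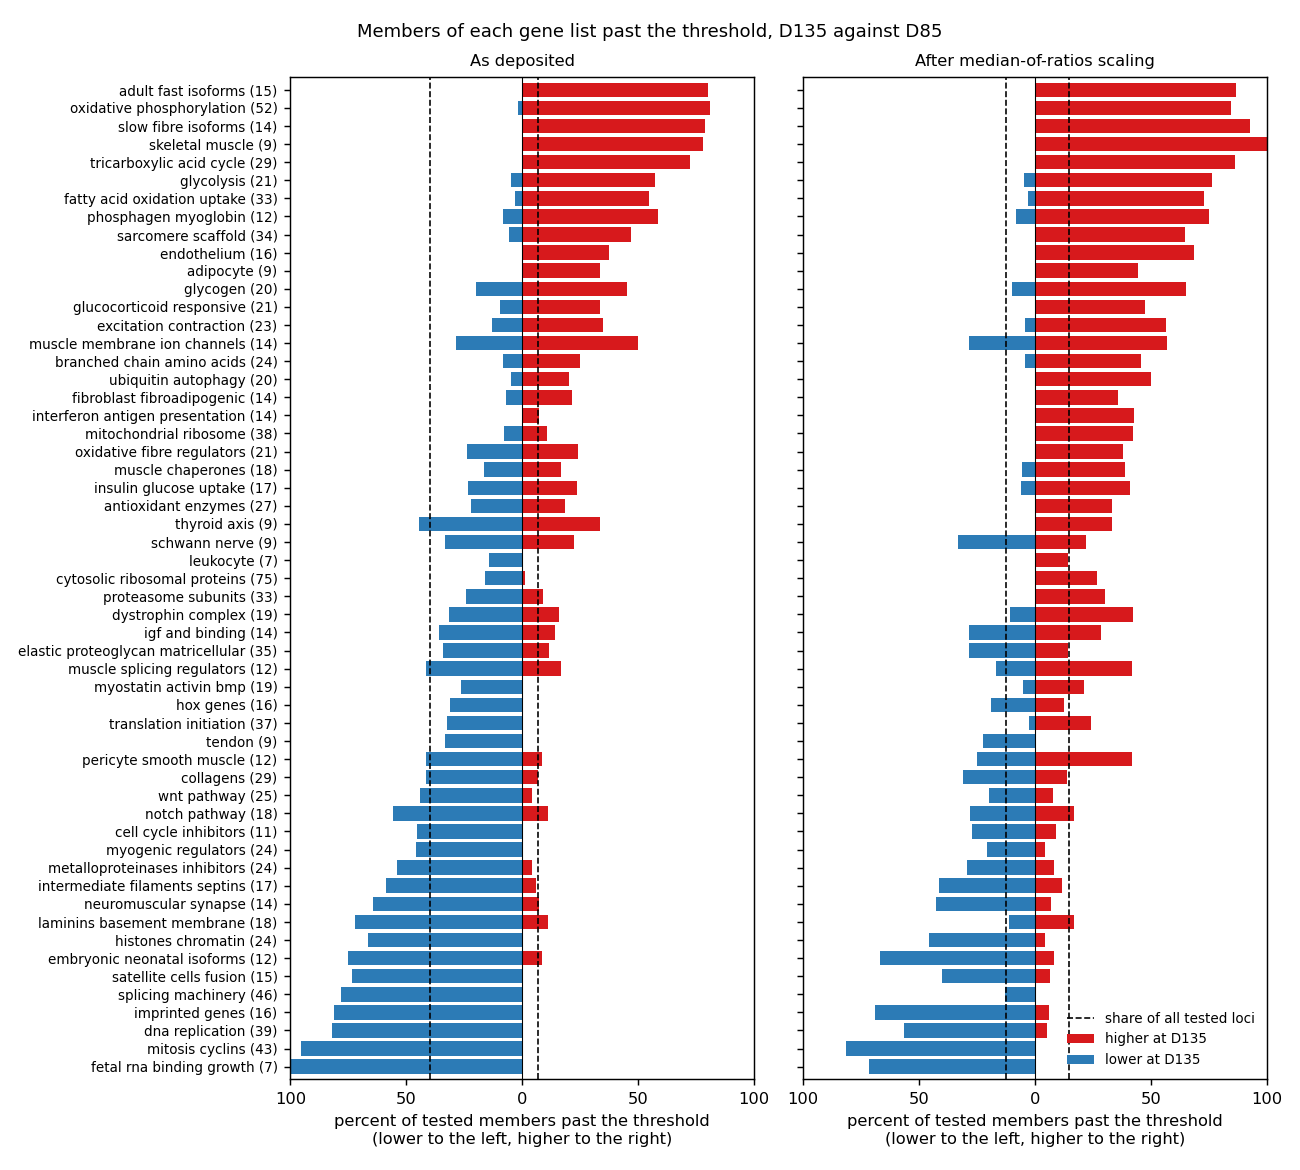
Percent of the tested members of each gene list called higher (right) or lower (left) at D135 against D85, as deposited and after median-of-ratios scaling. Dashed lines give the share of all tested loci called in each direction (6.9% and 39.7% as deposited, 14.9% and 12.5% after scaling); the slow and fast isoform, oxidative phosphorylation and glycolysis lists exceed the lines on the right and the mitosis and DNA replication lists on the left, in both scalings.

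In the matrix, the collagens of highest level were not called and several minor ones fell. As deposited, collagens fell about as often as all loci (39.7%), and after scaling more often than all loci (12.5%). COL3A1 was at 1291, 723 and 817 FPKM at D85 and 619, 603 and 797 at D135, and COL1A2 at 940.5, 737 and 596 FPKM at D85, 636, 2670 and 658 at D105 and 344, 684 and 1341 at D135; their days overlapped and neither was called. The spread of COL1A2 followed the tendon markers, with D105 replicate 2 the highest library and D135 values in the order of the tendon sums, and the part of tendon in it was not tested. COL21A1, a fibril-associated collagen, was at 55.99, 52.1 and 56.6 FPKM at D85, 41.9, 30.4 and 37.2 at D105 and 7.80, 6.74 and 10.2 at D135 (log2 change −2.61 ± 0.16), and COL19A1, found at muscle basement membranes, fell from 2.91, 6.21 and 6.75 to 0.212, 0.319 and 0.257 FPKM. COL15A1, a collagen of muscle and vessel basement membranes, was at 69.2, 86.8 and 75.9 FPKM at D85, 174, 164 and 169.7 at D105 and 120.3, 122 and 144 at D135. It was highest at D105 as deposited but not after scaling, and above D85 at D135 (log2 change 0.73 ± 0.11). Of 29 collagens 2, COL15A1 and COL8A1 (library-dependent, adjusted p = 0.106 without D135 replicate 3), were higher and 12 lower as deposited, and 4 and 9 after scaling, the 2 further ones being COL6A2 and COL6A3.

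Among elastic and matricellular genes 4 of 35 were higher and 12 lower, and 5 and 10 after scaling. The share lower lay under the 39.7% of all loci as deposited and above their 12.5% after scaling. ELN, elastin, was at 4.54, 4.28 and 2.10 FPKM at D85, 23.3, 40.3 and 15.1 at D105 and 15.8, 25.2 and 69.8 at D135 (log2 change 2.81 ± 0.55), with D135 replicate 3, the D135 library of highest tendon sum, the highest. EFEMP1, a fibulin, was at 3.63, 3.69 and 3.34 FPKM at D85 and 9.28, 8.20 and 9.12 at D135, and PRELP and FBLN2 (library-dependent, adjusted p = 0.0799 without D135 replicate 3) were the other rises. POSTN and VCAN, given above, and TNC, tenascin, at 17.8, 25.1 and 15.9 FPKM at D85 and 1.22, 3.02 and 3.38 at D135, were the largest falls. Of 18 laminins and basement membrane genes 2, LAMA3 and LAMB2, were higher and 13 lower as deposited, and 3 and 2 after scaling, while quantile normalization gave 6 lower. LAMB2, the laminin of the synaptic basement membrane, was at 68.97, 82.5 and 60.6 FPKM at D85 and 107, 91.9 and 91.04 at D135 (library-dependent, adjusted p = 0.0695 without D135 replicate 1), and LAMB1, its embryonic counterpart, at 110.3, 118 and 119 FPKM at D85 and 68.6, 67.7 and 57.3 at D135, lower as deposited only. LAMA1 and LAMA5 were lower on both scales. Of 24 metalloproteinases and inhibitors TIMP4 (library-dependent, adjusted p = 0.0749 without D135 replicate 2) was higher and 13 were lower as deposited, and 7 after scaling. MMP2, a gelatinase, fell from 117, 114 and 93.6 to 37.7, 39.4 and 56.4 FPKM, and ADAM12, which acts in myoblast fusion, fell too (log2 change −1.46).

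Among the signalling genes of patterning, the shares of the Wnt and HOX lists that fell as deposited lay near or below the 39.7% of all loci. After scaling both shares lay above the 12.5% of all loci, on 5 and 3 genes. In the Notch list 10 of 18 were lower and 2, MFNG and DLL4 (library-dependent, adjusted p = 0.116 without D135 replicate 3), higher as deposited, and 5 and 3 after scaling. NOTCH3 went from 14.99, 16.3 and 11.7 to 6.61, 5.39 and 6.68 FPKM, and HES6, a target in myoblasts, from 1.94, 1.52 and 1.45 to 0.0868, 0.0273 and 0.0946. In the Wnt list 11 of 25 were lower and 1 higher, and 5 and 2 after scaling. DKK2, a secreted Wnt inhibitor, was the gene that rose, from 3.11, 2.06 and 1.56 to 19.9, 7.05 and 9.35 FPKM at its most abundant locus, and SFRP1, another inhibitor, fell from 11.9, 10.5 and 10.4 to 2.995, 2.60 and 2.57. Of 16 HOX genes 5 were lower as deposited and 3 after scaling. HOXA9, HOXC4 and HOXC8 were lower on both scales, HOXC10 (library-dependent, adjusted p = 0.0717 without D135 replicate 3) and the joined HOXA7 and HOXA3 locus (library-dependent, adjusted p = 0.104 without D135 replicate 2) as deposited only, and HOXA4 and HOXB6 were higher after scaling only. Leaving out D85 replicate 2 or D135 replicate 1 or 3 left 3 lower as deposited. Of 17 intermediate filament and septin genes 10 were lower and 1 higher, and 7 and 2 after scaling. SYNM, which links desmin filaments to the membrane, was the gene that rose, from 8.90, 22.2 and 16.4 to 36.2, 34.5 and 40.02 FPKM, and LMNB1, a lamin of dividing cells, fell from 20.8, 22.5 and 21.1 to 4.49, 5.35 and 6.84.

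Markers of other cell types in the tissue moved in both directions. Of 16 endothelial markers 6 were higher and none lower as deposited, and 11 and none after scaling. Their summed level was 198, 219 and 229 FPKM at D85, 303, 311 and 313 at D105 and 248, 224 and 276 at D135, highest at D105 as deposited. After median-of-ratios scaling (factors 1.109 to 1.144 at D105, 0.7877 to 0.8498 at D135) that order does not hold. VWF, a clotting factor made by endothelium, was at 8.33, 10.7 and 9.93 FPKM at D85, 16.97, 17.5 and 15.7 at D105 and 16.1, 13.6 and 17.6 at D135, and ESAM, a junction protein, rose by 0.69 log2 units. KDR, the main receptor of VEGFA, was at 40.9, 39.9 and 45.6 FPKM at D85 and 38.97, 32.7 and 35.1 at D135 and was not called. RGS5, a marker of pericytes, was at 3.03, 3.18 and 3.12 FPKM at D85, 12.9, 23.4 and 15.4 at D105 and 32.98, 25.5 and 33.7 at D135 (log2 change 2.94 ± 0.20), and the days did not overlap. Of 12 markers of pericytes and smooth muscle it alone was higher and 5 were lower as deposited, and 5 and 3 after scaling. ACTA2, smooth muscle actin, also used by immature fibres, fell from 64.1, 85.8 and 70.9 to 25.4, 14.6 and 28.4 FPKM; MCAM and NOTCH3 were the other falls that held, and CSPG4 and CNN1 fell as deposited only.

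Of 14 fibroblast markers PI16, GSN and CD34 (library-dependent, adjusted p = 0.083 without D85 replicate 1) were higher and DPT lower as deposited, and 5 and none after scaling. PI16, a marker of adventitial fibroblasts, was at 7.58, 3.58 and 5.30 FPKM at D85, 9.61, 19.8 and 16.2 at D105 and 25.9, 15.5 and 35.3 at D135 (log2 change 2.01 ± 0.37). Of 9 adipocyte markers LPL, PLIN4 and the joined GPD1 locus were higher, and 4 after scaling. FABP4, the defining fatty acid binding protein of adipocytes, was at 5.96, 0 and 0.105 FPKM at D85, 0.785, 45.6 and 0.897 at D105 and 3.08, 34.2 and 0.665 at D135, highest in D105 replicate 2 and D135 replicate 2, and was not called. Among 7 leukocyte markers CD68 (library-dependent, adjusted p = 0.138 without D135 replicate 2) was lower as deposited and C1QA higher after scaling. Of 14 interferon and antigen presentation genes B2M, the light chain of class I molecules, was higher, from 143, 81.1 and 86.1 to 306, 170.1 and 188 FPKM (library-dependent, adjusted p = 0.0981 without D85 replicate 2), and 6 were after scaling. Of 9 Schwann cell and nerve markers NCAM1, NGFR and ERBB3 were lower and PRX, a protein of myelin, was among those higher on both scales (library-dependent, adjusted p = 0.0909 without D135 replicate 2). Of 9 tendon markers TNC, CHODL and COL12A1 were lower as deposited and the first 2 after scaling; FMOD, at 19.3, 14.8 and 5.45 FPKM at D85 and 1.36, 35.3 and 68.5 at D135, shows the spread of the others. SOX9 alone of 5 cartilage and bone markers was lower on both scales, and TP63 (library-dependent, adjusted p = 0.121 without D85 replicate 3) alone of 2 epidermal markers was lower, as deposited only.

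At D105 most loci had covered the smaller part of their change from D85 to D135. The share of a change reached at D105 is the D105 mean minus the D85 mean, divided by the D135 mean minus the D85 mean, on the log2(FPKM + 1) scale. Over the 903 higher loci the median share was 31.8% (interquartile range 15.5% to 53.9%), and over the 1642 loci lower on both scales 21.9% (11.9% to 32.3%). Single D105 libraries gave medians of 28.7%, 35.4% and 33.4% for the higher loci and 17.0%, 24.4% and 22.8% for the lower ones. These shares moved with the scaling: after median-of-ratios scaling the 1952 higher loci had a median of 22.1% and the 1642 lower loci 30.8%, so no order between rises and falls is read from them. Of the 903 higher loci 271 had a share between 0% and 25%, 436 between 25% and 75% and 61 between 75% and 100%; 80 lay below 0% and 55 beyond 100%. Of the 1642 lower loci 842, 657 and 15 fell in the same classes, with 127 below 0% and 1 beyond 100%.

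Median shares at D105 ranged widely between lists. The 11 slow isoforms called on both scales had a median share of 5.99%, with 10 under 25%, whereas the 12 fast isoforms had 30.2%, with 9 between 25% and 75%. Of 42 oxidative phosphorylation genes 36 had a share under 25% (median 12.7%), and of 35 genes of mitosis 31 did (median 13.6%). Glycolysis reached 36.5% and the phosphagen list 35.4%. Endothelial markers lay at the other end as deposited: 5 of 6 had a share above 75%, with a median of 117%. All these list shares use the values as deposited. They were not taken after scaling, which moved the shares over all called loci. These medians describe members already selected by their call between D85 and D135, and the difference between lists was not tested.

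Early rises were rare among large changes. Of 131 higher loci with a change of at least 1.5 log2 units, a mean of at least 5 FPKM at D135 and no overlap, 2 had a share between 75% and 100%, ELN (88.7%) and HINT1 (81.8%), and 35 had a share between 0% and 25%. HINT1, a nucleotide hydrolase, was at 0.192, 1.42 and 1.30 FPKM at D85, 1.46, 6.85 and 5.04 at D105 and 6.56, 8.23 and 2.15 at D135, and its call was library-dependent, adjusted p = 0.114 without D135 replicate 2. Late rises included TNNT1 (16.9%), PPP1R3C (3.41%), MB (9.73%) and TMEM159 (4.64%), a lipid droplet protein at 2.72, 1.57 and 1.73 FPKM at D85, 2.38, 2.61 and 1.88 at D105 and 24.6, 23.4 and 24.9 at D135. A second locus of EIF4B was listed at 0 in all D85 and D105 libraries and at 9.002, 8.52 and 4.72 FPKM at D135, while the main locus held 113, 107 and 89.4 FPKM at D85 and 111, 121 and 95.4 at D135. Of 203 lower loci that met the same limits 100 had a share between 0% and 25%, among them PRR32 (18.4%), MYH3 (17.2%), POSTN (13.5%), VCAN (15.4%), MSC (22.3%) and PEG10 (23.4%). The single one past 75% was a locus of ARHGAP8 that is listed at 0 in 2 libraries of D105 and 2 of D135. These classes depend on the log2(FPKM + 1) scale. Among loci called on both scales with at least 1 log2 unit, the median share on FPKM itself was 32.3% for falls, against 23.2%. For rises it was 19.1%, against 29.6%. PEG10 had means of 356.7, 193.1 and 26.17 FPKM at D85, D105 and D135, and MYH3 1203, 731.6 and 62.76.

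Some loci left the span at D105. PGK1, a glycolytic enzyme, was at 34.4, 32.97 and 50.7 FPKM at D85, 30.2, 24.6 and 31.4 at D105 and 44.3, 92.3 and 83.8 at D135, lowest at D105 and higher at D135 than at D85 by 0.84 log2 units; its D85 and D135 values overlapped, and its call was library-dependent, adjusted p = 0.13 without D135 replicate 2. LRRC20 was at 2.52, 4.58 and 4.36 FPKM at D85, 2.05, 4.32 and 1.64 at D105 and 8.87, 7.77 and 7.03 at D135, and its call was library-dependent, adjusted p = 0.0917 without D85 replicate 1. HIVEP2 and LIMCH1 lay farthest outside among the higher loci, with D105 means of 0 and 0.0327 FPKM. Their means were 2.65 and 1.53 FPKM at D85 and 9.06 and 7.13 at D135. Of the 5 lower loci farthest outside, 4 are given by library. The remaining one, HN1L, had means of 7.68, 8.72 and 2.66 FPKM at D85, D105 and D135. NPNT, nephronectin, a matrix ligand of integrins, was at 6.30, 7.28 and 6.52 FPKM at D85, 10.1, 7.39 and 10.2 at D105 and 2.39, 2.18 and 3.59 at D135 (log2 change −1.07 ± 0.17). QSOX1, which forms disulfide bonds, was at 11.98, 12.9 and 10.7 FPKM at D85, 15.5, 13.4 and 14.3 at D105 and 5.38, 6.55 and 6.93 at D135, and CNN3, a calponin, at 55.05, 57.8 and 58.2 FPKM at D85, 65.9, 69.3 and 59.5 at D105 and 28.4, 30.98 and 25.9 at D135. The joined locus MIR495;MIR377, which spans microRNA genes and does not measure the mature microRNAs, was at 13.99, 17.3 and 16.5 FPKM at D85, 25.8, 19.7 and 22.4 at D105 and 1.72, 3.62 and 4.19 at D135 (log2 change −2.07 ± 0.24). At NPNT, QSOX1, CNN3 and this joined locus every D105 library lay above every D85 library as deposited, and every D135 library lay below. Their order by library after scaling is not given here.

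**Figure D5:**
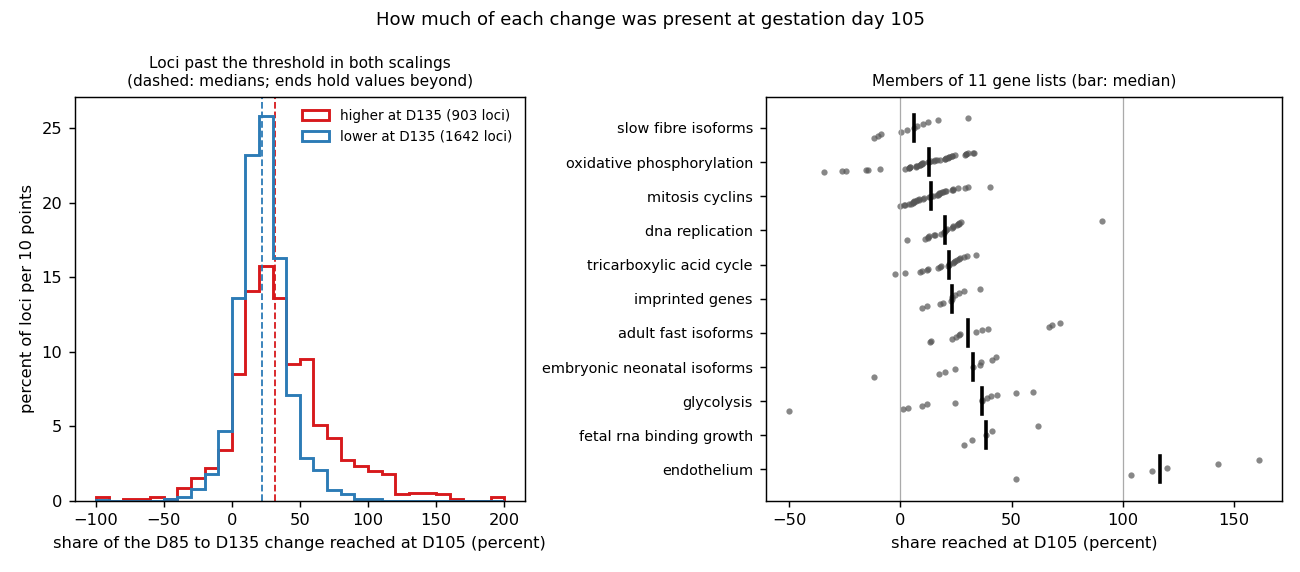
Share of the D85 to D135 change reached at D105, in percent and from values as deposited, as histograms over the 903 higher and 1642 lower loci called on both scales, and for the members of 11 gene lists with their medians. Slow isoforms, oxidative phosphorylation and mitosis crowd near 0% to 25%, and fast isoforms and glycolysis near 30%.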

How the data were processed

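RNA of fetal longissimus dorsi was extracted with Trizol and sequenced as mRNA libraries, per the labels' protocols. The series' design text names more than 1 HiSeq model without saying which library ran on which. The submitters' processing notes name cutadapt, Bowtie2 and TopHat2. Which assembler, counting method and genome build were used is not given in the sources used here. The deposited values are FPKM per locus, made by the authors in 1 table of 22605 loci and 9 libraries. Many locus identifiers have the form MSTRG.n, as StringTie gives, and 211 loci of the table join several genes.

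Columns were matched to samples by name. Loci with at least 1 FPKM in at least 3 libraries (13086) were put on the log2(FPKM + 1) scale and fitted by limma (version 3.58.1, R version 4.3.3), with day as the only term, all 9 libraries sharing the spread, a trend in the empirical Bayes step and two-sided p-values with Benjamini-Hochberg adjustment at 0.05 over all tested loci. Every adjusted p in the text comes from this fit or from its alternatives. Median-of-ratios factors came from 16950 loci. Exact permutation of 3 libraries against 3 cannot go below 0.10 and was not used. Read depth is not given with FPKM and was only estimated relative to 1 library, so no counting interval is given. Tables and plots were made with Python 3.11.15, pandas 2.3.3, numpy 2.4.6 and matplotlib 3.10.9. The code was tested on simulated data.

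Symbols came from the table and, for 499 loci, from a RefSeq gene table of assembly ARS-UI_Ramb_v3.0, used for names only. Of 1400 entries in 59 gene lists, 1349 were matched, 30 by the table's description and 21 by an older symbol. A listed 0 can be a failed estimate: 256 tested loci were at 0 in 1 library while the median of the others was at least 5 FPKM.

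Genes were named by a rule: the 12 loci with the largest change in each direction among those called in both scalings, with a symbol, at least 5 FPKM in the higher day and no overlap between days; up to 4 members of each list with the largest change and its 2 of highest mean; members of the contractile, myogenic, growth factor, imprinted, fetal RNA-binding and elongation factor lists; up to 6 loci of at least 1.5 log2 units in each early and late class; the 5 farthest outside the span; and the 5 highest loci of a day. Other names, mostly of members in counts of 5 or fewer, were chosen after their values were seen. The lists and these rules were chosen with earlier results of these data known. Alternatives covered scaling, pseudocount, filters, the spread estimate, the replicate block and leaving out each library. Some members of these lists are not reported here by name.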

Additional observations from a re-analysis of the deposited data

How the results depend on the processing

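As deposited 6097 loci changed, 903 higher and 5194 lower. Median-of-ratios scaling gave 3594 loci, 1952 higher and 1642 lower, and 3652, 1983 and 1669 when D105 replicate 2 was left out as well; quantile normalization gave 3542, 1599 and 1943. A mean of at least 5 FPKM, which tests fewer loci, left 3242, 543 and 2699, and a change of at least 1 log2 unit left 1394, 385 and 1009. The pseudocount, the trend, library weights, the 6 libraries alone, no filter and a total without the 50 highest loci kept the count of changed loci within 1.5 times. Without single libraries it ran from 4735 (without D135 replicate 2) to 6152 (without D105 replicate 2), with 751 to 933 higher and 3969 to 5219 lower. Of the 5194 lower calls as deposited 3589 held without each library in turn.

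The median share reached at D105 was 31.8% for higher loci, 22.1% after median-of-ratios scaling, 35.5% with a pseudocount of 0.1 and 23.8% on linear FPKM, and 28.3% to 35.5% without single libraries. For the 5194 loci lower as deposited it was 17.5%, 30.8% after scaling, 21.6% on linear FPKM, 23.2% among loci of at least 1 log2 unit and 16.7% to 21.5% without single libraries. Among genes named here that were called as deposited, the direction of TNNC2 turned to −0.41 under quantile normalization, and those of MRPS10 (0.0326), BECN1 (0.0636), MRPS27 (0.142), MRPS31 (0.0749), NCOR1 (0.173), NR3C2 (0.0664) and the joined AKT2 locus (0.098) turned after median-of-ratios scaling. Those of MRPS27 (0.0171), MRPS31 (0.0339), NR3C2 (0.00144) and the AKT2 locus (0.0427) turned under quantile normalization as well. The cause was not tested. Genes without a call as deposited changed sign too, and of these DMD (−0.04 to 0.41) and PGAM1 (−0.06 to 0.40) were called higher after median-of-ratios scaling.

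Libraries with the same replicate number did not deviate together over all tested loci (r from −0.07 to 0.06). Such a correlation cannot show whether the numbers pair libraries at some genes, and the labels do not say. The replicate block gave 5495 changed loci, 835 higher and 4660 lower, and kept 806 of the 903 higher calls and all 1642 calls lower in both scalings. Quantile normalization kept 887 and 1584 of these. The 1642 lower calls had already outlasted the loss of calls by scaling, so these counts do not compare rises with falls. Loci with a reference transcript only (6066 changed) and leaving out the doubtful zeros (6144) were chosen after seeing the data, as was the combination with D105 replicate 2. Ratios of low values put the relative depth of the D135 libraries at 1.11 to 1.21 against D85 replicate 1, an estimate that no fit used.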
